A study of Homo sapiens with 60 samples.

Results

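The replication-dependent histone genes encode the linker histone H1 and the core histones H2A, H2B, H3 and H4 that package newly copied DNA. They were chosen by their symbols: a protein-coding gene belonged to the group when its symbol was H1- followed by 1 to 5, or H2AC, H2BC, H3C or H4C followed by a number, with the older HIST1 to HIST4 names accepted. This rule used no measured value and found 69 of the 60675 genes in the count table, 65 by their current symbol and 4 by an older name (H2AC18, H2AC19, H3C2 and H3C3). They comprise 5 H1, 17 H2A, 19 H2B, 13 H3 and 15 H4 genes. In GENCODE 29, 54 lie on chromosome 6, 13 on chromosome 1 and 1 each on chromosomes 12 (H4C16) and 21 (H2BC12L). Of the 69, 6 had 0 counts in every library, 31 passed the filter on low counts and were tested, and 38 did not pass.

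The data are RNA-seq counts from HepG2, a human hepatocellular carcinoma cell line, exposed for 24 h to a 70% ethanol extract of 1 medicinal plant or of 1 herbal formula, or to dimethyl sulfoxide (DMSO) vehicle. The vehicle group had 3 libraries, with DMSO given as 0.1% in the sample labels and as 2% in the series text. High, medium and low doses were 280, 56 and 11.2 µg/mL for Coptidis Rhizoma (2 libraries per dose) and Bupleuri Radix (3 per dose), whose doses followed the extract's IC20, a measured inhibitory concentration. The doses were 500, 100 and 20 µg/mL for Zizyphi Fructus (2 per dose), Aconiti Lateralis Radix Preparata, Cimicifugae Rhizoma and Citri Unshius Pericarpium (3 each per dose), and for the formulas Yijung-tang (2 per dose) and Banhasasim-tang (1 per dose). Samples were numbered in sets: Coptidis and Zizyphi in set 11, Citri and Cimicifugae in set 12, Bupleuri and Aconiti in set 13, both formulas in set 14, and vehicle in a set of its own. Set and treatment therefore cannot be told apart in any comparison with vehicle, while high against low dose compares libraries of 1 set. The label fields of the Coptidis and Zizyphi libraries disagree on the batch letter. Nothing in the labels says that replicates were separate cultures, so a p-value here speaks of the spread between these libraries and no more. The design excluded samples of low RNA concentration, and all groups share 1 cell line.

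Replication-dependent histone mRNAs are made in S phase, when histone supply has to match DNA synthesis. NPAT, driven by cyclin E and CDK2, switches their promoters on, and the mRNAs end in a conserved stem-loop bound by the stem-loop binding protein SLBP instead of in a poly(A) tail. Some of these genes also make longer or spliced polyadenylated mRNAs, which are known from resting and differentiated cells. The sources used here do not say whether poly(A) RNA was selected. The labels describe an mRNA library prepared from total RNA with a directional kit and paired-end reads.

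The stem-loop is shown here because it is what sets these mRNAs apart, and because the reads of a gene can come from transcripts that end at it or run past it. It was searched in the GENCODE 29 transcripts and found past the coding sequence, in the 3′ UTR, of 31 members. Each form is written 5′ to 3′ in 16 letters, with the pairing stem arms in capitals and the loop in lower case.
Most common form (17 members, 13 tested, among them H2AC6, H2BC21 and H3C10): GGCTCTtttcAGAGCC
H4 form (5 members, 4 tested, all H4 genes, among them H4C8): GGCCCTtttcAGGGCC
H2B and H3 form (4 members, 2 tested, H2BC4 and H2BC5): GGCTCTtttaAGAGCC
Other H4 form (3 members, 2 tested, H4C14 and H4C15): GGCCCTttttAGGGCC
H3C6 alone: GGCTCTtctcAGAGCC
H2AC11 alone: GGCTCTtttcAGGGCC
On GRCh38 the stem-loop of H2AC6 lies at chr6:26124669-26124684 (plus strand), that of H2BC4 at chr6:26123472-26123487 (minus), that of H2BC21 at chr1:149886188-149886203 (minus), that of H3C10 at chr6:27810516-27810531 (plus) and that of H4C8 at chr6:26285131-26285146 (minus). In the annotation, 26 members had a spliced transcript or one that ran at least 100 bases past the stem-loop, and 7 ended near it. The other 36 had no transcript with a match, as in H1-2 and H2AC20. H2BC11 and H3C12, among the 26, had no match either. No match says only that the annotated transcripts hold no stretch of the pattern searched.

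Histone genes often sit head to head and share a promoter region. There were 12 such pairs, and both members were tested in 5 of them. At the high Coptidis dose H2BC4 and H2AC6, 218 bases apart, were both higher, while H2BC21 and H2AC20, 322 bases apart, went in opposite directions. In the other 3 tested pairs, H2BC8 was higher and H2AC8 not called, and neither member of H2BC11 and H2AC11 or of H2BC13 and H2AC13 was called. The promoters of the pairs with both members called are printed: RefSeq GRCh38.p14, 250 bases before to 50 after the start, 5′ to 3′ on the gene's strand. Capitals mark CCAAT or its reverse complement ATTGG, and TATAAA or its reverse complement TTTATA.
H2BC4, chr6:26123877-26124176, minus strand: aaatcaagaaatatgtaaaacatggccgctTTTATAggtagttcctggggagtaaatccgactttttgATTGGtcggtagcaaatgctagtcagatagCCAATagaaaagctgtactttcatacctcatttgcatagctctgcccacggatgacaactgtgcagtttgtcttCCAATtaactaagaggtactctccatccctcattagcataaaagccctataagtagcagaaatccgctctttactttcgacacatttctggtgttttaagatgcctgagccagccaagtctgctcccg
H2AC6, chr6:26123922-26124221, plus strand: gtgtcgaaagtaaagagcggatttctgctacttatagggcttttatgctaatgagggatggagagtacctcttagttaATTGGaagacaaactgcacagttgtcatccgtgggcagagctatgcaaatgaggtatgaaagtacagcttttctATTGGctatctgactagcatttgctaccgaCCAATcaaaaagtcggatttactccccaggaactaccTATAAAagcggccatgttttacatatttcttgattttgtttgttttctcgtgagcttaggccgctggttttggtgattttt
H2BC21, chr1:149886633-149886932, minus strand: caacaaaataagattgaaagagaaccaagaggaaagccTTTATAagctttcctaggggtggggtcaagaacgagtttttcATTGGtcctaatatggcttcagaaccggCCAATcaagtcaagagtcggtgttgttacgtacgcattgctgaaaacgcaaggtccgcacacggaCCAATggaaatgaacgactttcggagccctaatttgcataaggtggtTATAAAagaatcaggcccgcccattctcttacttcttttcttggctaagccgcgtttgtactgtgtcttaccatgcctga
H2AC20, chr1:149886668-149886967, plus strand: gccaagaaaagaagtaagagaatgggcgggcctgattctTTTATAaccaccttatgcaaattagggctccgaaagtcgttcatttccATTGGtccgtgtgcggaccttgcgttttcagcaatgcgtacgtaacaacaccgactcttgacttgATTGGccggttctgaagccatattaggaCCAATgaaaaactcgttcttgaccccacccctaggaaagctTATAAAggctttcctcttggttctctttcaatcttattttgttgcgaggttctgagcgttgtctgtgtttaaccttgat
The H2BC4 and H2AC6 windows share 255 bases and hold 3 CCAAT or ATTGG and 1 TATAAA or TTTATA each. The H2BC21 and H2AC20 windows share 265 bases and hold 3 and 2 each. Both strands were counted, so equal motif counts within a pair largely follow from the overlap. RefSeq held a promoter for 63 of the 69 members. CCAAT or ATTGG occurred in 53 of them (84.1%, against 34.6% of the 35116 RefSeq promoters of the same length), and TATAAA or TTTATA in 42 (66.7%, against 11.5%). Overlapping windows of head-to-head members were counted once for each member. The 2 motifs were counted separately and may overlap, and a match is a description of letters, not of a bound factor.

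Library totals ranged from 18015555 to 29549531 counts, and levels are given in CPM, counts divided by the TMM-scaled library size. The 8 hepatocyte markers (ALB and APOA1 among them) summed to between 25200 and 45000 CPM over the 60 libraries. Fibroblast and endothelial marker lists summed to at most 17.3 and 7.01 CPM, with DCN and KDR at 0 throughout. The leukocyte list summed to 536 to 1700 CPM through LYZ and CD68, while PTPRC, which defines leukocytes, was at 0. Mitochondrial rRNA stood at 24320 to 25980 CPM in vehicle, at 126600 and 125000 in the low, at 107900 and 124000 in the medium and at 57750 and 61260 in the high Coptidis libraries. Its part in the results below was not tested.

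The members were measured at low levels. All 69 together gave 47.5, 45.1 and 43.2 CPM in the 3 vehicle libraries, a mean of 45.3 ± 2.13 (SD, n = 3), or 0.00453% of the counts. H2AC6 (chr6:26124145-26139116, plus strand, 3 spliced transcripts) and H2BC4 (chr6:26114873-26123926, minus) lie in the large histone cluster of chromosome 6 with H1-2 (chr6:26055787-26056428, minus, a single exon), H4C8 (chr6:26277609-26285638, minus) and H3C10 (chr6:27810064-27811300, plus). H2BC21 (chr1:149884459-149886652, minus) and H2AC20 (chr1:149886975-149887364, plus) lie in the smaller cluster of chromosome 1, all in GENCODE 29 coordinates on GRCh38. Levels were also divided by the kilobases of the longest annotated transcript, although reads may come from shorter ones. H1-2 was divided by 642 bases and H2AC6 by 1668, and H2AC6 transcripts run up to 1128 bases past the stem-loop. The order of genes therefore depends on the annotated lengths, which the SDs leave out. On this scale H1-2 was highest in vehicle at 7.94 ± 0.68 CPM per kb. H2AC6 (5.63 ± 0.516) and H4C11 (5.11 ± 0.717) followed and overlapped within their SDs. H2AC19 had 3.64 ± 1.37 and overlapped both H4C11 and H3C10 (3.62 ± 0.242), and as 1 of a near-identical pair its place in the order is uncertain. In CPM, H2AC6 carried 20.7% of the members' summed vehicle level, H1-2 11.3%, H3C10 9.88% and H2BC21 8.87%. The 38 untested members stayed at or under 0.449 CPM in every group mean, and H3C4 and H4C4 came nearest to passing; H2BC11 (highest group mean 0.343) and H2AC17 (0.449) passed with the least. RSEM divides reads between near-identical copies, so single values of H2AC18 and H2AC19, H3C14 and H3C15 (identical in each library), and H4C14 and H4C15 are uncertain, and most values of H2AC13 and H2BC15 were not whole counts either. H2BC15 also overlaps neighbouring histone genes, and the sources used here do not say whether counting used the strand.

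At the high Coptidis dose the summed histone level was above every other replicated group. The 2 high-dose libraries gave 103 and 116 CPM, against 39.7 and 45.3 at the low dose and 55.4 and 57.3 at the medium dose. The high-dose mean was 2.42 times the vehicle mean. Members did not share this rise evenly. The 6 known to make polyadenylated mRNA, listed with earlier results in view, went from 22.3, 21.7 and 21.5 to 73.3 and 81.9 CPM. Summed H3 genes, unlike the other classes, did not rise, with 6.65, 5.98 and 6.36 CPM in vehicle and 5.46 and 6.74 at the high dose. How much of the sum came from tailed mRNA was not tested. The other 21 replicated groups had means from 38.8 (Yijung-tang high) to 56.9 CPM (Aconiti high), and their highest single library was 59.9 CPM, so the high Coptidis libraries did not overlap with any of them. Over the same libraries the summed level of 46 S-phase and DNA replication genes went the other way. It was 4342 to 4435 CPM in vehicle, 3686 and 3759 at the low, 2288 and 2332 at the medium and 1188 in both libraries at the high dose. In bulk RNA, fewer cells in S phase and less of such an mRNA per cell cannot be told apart.

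**Figure D1:**
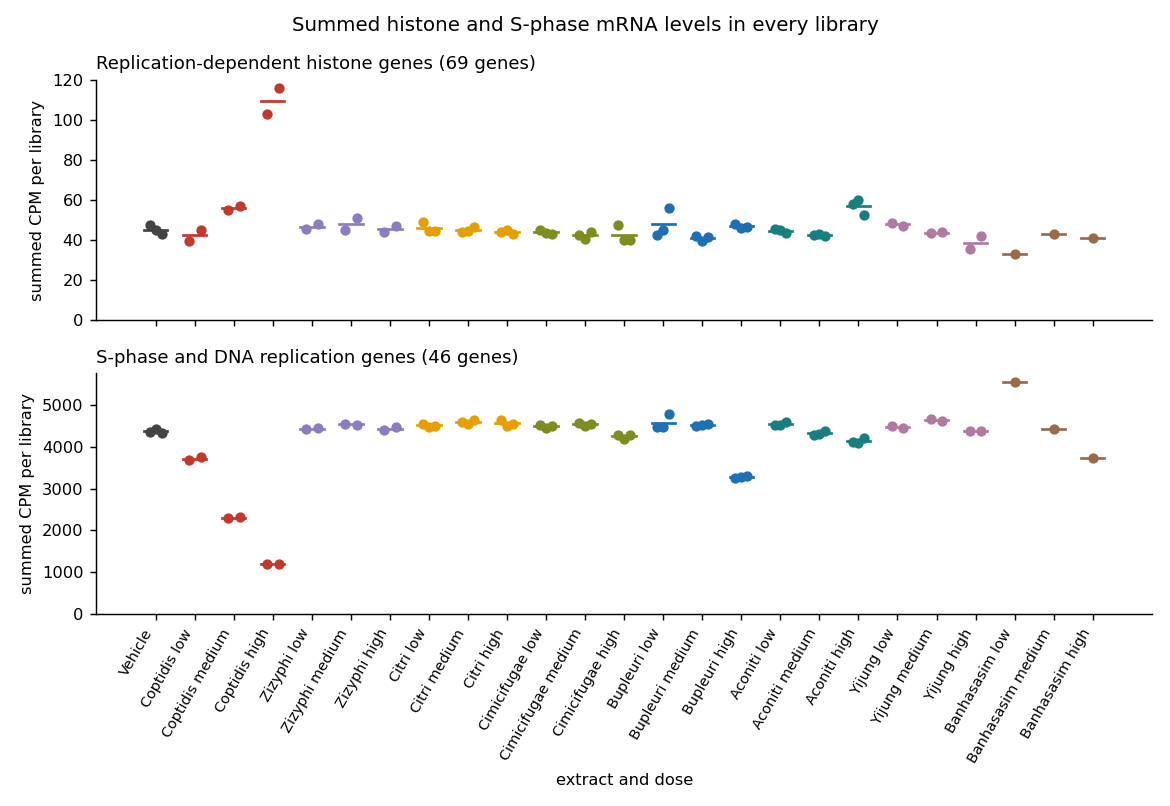
Summed CPM of the 69 replication-dependent histone genes (top) and of 46 S-phase and DNA replication genes (bottom) in each of the 60 libraries (points), by extract and dose, with group means as lines; both axes start at 0. The 2 high-dose Coptidis libraries stand at 103 and 116 CPM for the histone genes and at 1188 CPM for the S-phase genes.

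Across the 31 tested members, 13 were higher at the high Coptidis dose than in vehicle and 3 were lower (edgeR's quasi-likelihood test, Benjamini-Hochberg adjusted p under 0.05 over 16675 genes). The 13 are 41.9% of the tested members, beside 34.5% of all genes called higher; the 3 are 9.68%, beside 33.0% called lower. The share called higher is thus near the background, while the share called lower is below it. The members' median log2 fold change was 0.88, against 0.00 over all genes. The members share depth and gene families and are not independent, and H3C14 and H3C15 passed the filter only through Coptidis libraries; the other 29 passed without them. The 15 members that were not called had log2 fold changes from -1.98 to 0.93.

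Among the H2A genes, which encode 1 partner of the H2A-H2B dimer, H2AC6 changed most clearly. Its level was 8.68, 10.3 and 9.16 CPM in vehicle and 36.8 and 45.4 CPM at the high Coptidis dose. Both treated libraries lay far above all 3 vehicle libraries, and the gene rose by 2.13 ± 0.10 on the log2 scale (SE; edgeR adjusted p 3.1e-23). Its share of the summed histone level went from 20.7% to 37.5%. The copies H2AC18 and H2AC19, summed, stood at 3.39, 3.51 and 2.94 CPM in vehicle and at 6.91 and 8.02 CPM at the high dose, without overlap, and rose by 1.19 ± 0.18 (edgeR adjusted p 1.0e-07). H2AC19 alone had 1.57, 1.65 and 2.94 CPM in vehicle and 2.18 and 8.02 CPM at the high dose, which overlap. It was called higher (1.33 ± 0.57, edgeR adjusted p 0.0374), but not without vehicle replicate 1 (p 0.103), vehicle replicate 2 (p 0.095) or Coptidis high replicate 3 (log2 fold change 0.10, p 0.927). H2AC20, whose values per library were chosen after they were seen, had 0.744, 0.520 and 0.617 CPM in vehicle but 0 and 0.0511 CPM at the high dose, which is 1 count in both libraries together against 43 in vehicle. The ratio of the pooled levels was 0.0409 (95% counting interval 0.00101 to 0.241), and the gene was called lower (edgeR adjusted p 2.6e-06). In all, 2 of 8 tested H2A genes were higher and 1 was lower, beside 34.5% and 33.0% of all genes.

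H1 binds the linker DNA between nucleosomes. H1-2 stood at 5.33, 4.59 and 5.36 CPM in vehicle and at 17.41 and 18.03 CPM at the high dose. The groups were far apart and the gene rose by 1.80 ± 0.13 in log2 (SE; edgeR adjusted p 4.3e-16). H1-4 went the other way, from 0.496, 0.346 and 0.285 CPM to 0.104 and 0.102 CPM, or from 26 counts to 4. It was called lower (edgeR adjusted p 0.00827) with a ratio of 0.271 (95% counting interval 0.0687 to 0.781), a call that ended without Coptidis high replicate 3 (p 0.052). The other 3 H1 genes did not pass the filter.

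Of 9 tested H2B genes, which encode the other dimer partner, 5 were higher at the high Coptidis dose, beside 34.5% of all genes. H2BC21 had 4.46, 4.07 and 3.51 CPM in vehicle and 10.8 and 10.3 CPM at the high dose, and rose by 1.39 ± 0.12 (edgeR adjusted p 1.6e-13). H2BC4, head to head with H2AC6, had 1.53, 1.34 and 1.42 CPM in vehicle and 4.16 and 4.75 CPM at the high dose, and rose by 1.64 ± 0.23 (edgeR adjusted p 2.5e-08). In both genes the treated libraries lay above every vehicle library. H2BC5 (log2 fold change 0.92), H2BC8 (1.10) and H2BC12 (1.14) were the other members called. H2BC8 lost the call without Coptidis high replicate 3 (edgeR adjusted p 0.111), and H2BC12 without vehicle replicate 2 (p 0.15) or Coptidis high replicate 2 (p 0.136). H2BC15, among the highest members in vehicle at 2.69, 2.25 and 2.13 CPM, had 3.43 and 2.81 CPM and was not called (log2 fold change 0.40, edgeR adjusted p 0.0948).

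H3 and H4 form the tetramer at the centre of the nucleosome. H3C10 was the abundant member that fell: 4.75, 4.16 and 4.51 CPM in vehicle against 1.51 and 1.53 CPM at the high dose, a log2 fold change of -1.55 ± 0.19 (edgeR adjusted p 1.0e-09). All 3 vehicle libraries were well above both treated ones, and its share of the summed histone level dropped from 9.88% to 1.39%. H3C6 (1.33 ± 0.25) and the copies H3C14 and H3C15, counted as 1 gene (2.31 ± 0.31), rose (edgeR adjusted p 7.8e-06 and 7.2e-09). Singly, these copies passed the filter only through Coptidis libraries. Among H4 genes, H4C8 had 0.703, 0.693 and 0.712 CPM in vehicle and 2.49 and 2.35 CPM at the high dose, without overlap, and rose by 1.78 ± 0.27 (edgeR adjusted p 2.2e-07). H4C16 rose by 1.15 ± 0.33 (edgeR adjusted p 0.00189), and H4C14 and H4C15, not called singly, rose as a summed pair (0.91 ± 0.17, edgeR adjusted p 7.1e-06). By class, the summed H1 level went from 5.48 to 17.8 CPM, H2A from 15.5 to 50.5, H2B from 11.5 to 24.4 and H4 from 6.46 to 10.8, while H3 had 6.33 CPM in vehicle and 6.10 at the high dose.

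**Figure D2:**
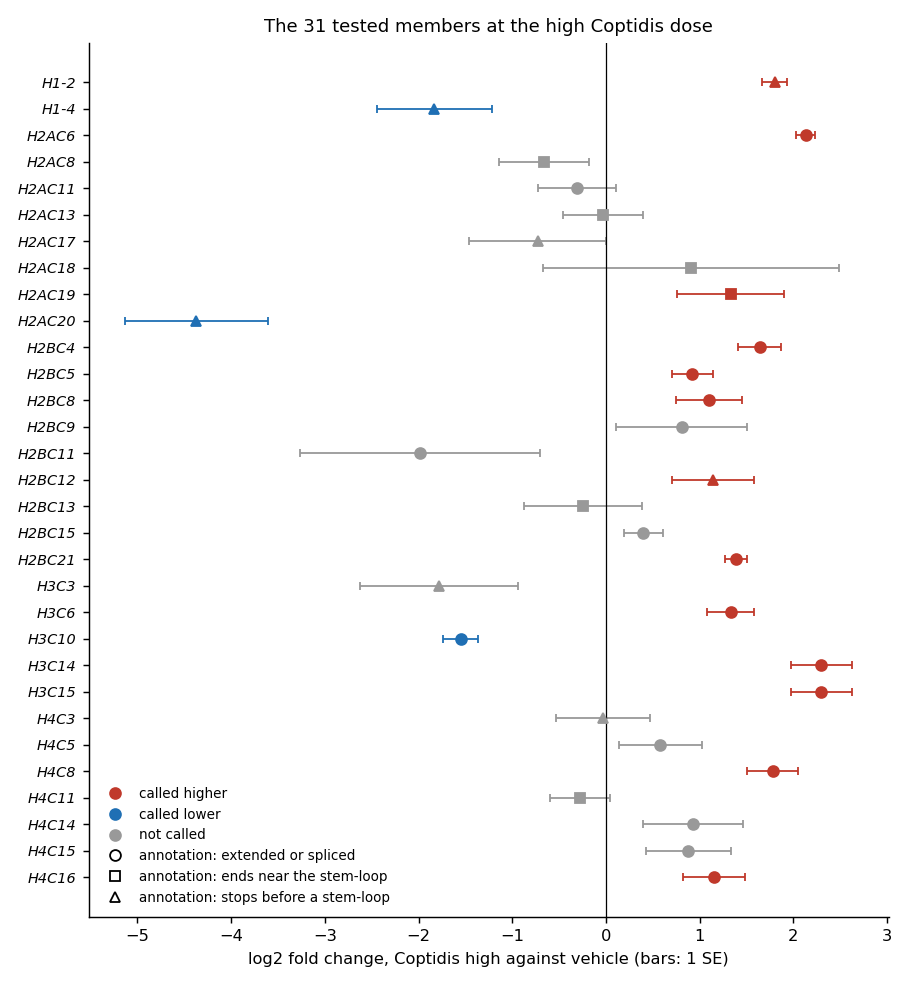
Log2 fold change of each of the 31 tested members at the high Coptidis dose against vehicle (bars, 1 SE), coloured by call. The marker shape gives the GENCODE 29 annotation: a spliced or extended transcript, an end near the stem-loop, or an unspliced gene without a match. H2AC6 stands at 2.13 and H3C10 at -1.55; the fitted value of H2AC20 rests on 1 count in the treated libraries.

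Members are next described by the transcripts they are annotated with, without a test between the kinds and beside 34.5% of all genes called higher and 33.0% called lower. Of the 18 tested members with spliced or extended transcripts, 10 were higher and 1 was lower (median log2 fold change 1.02), and the 10 include the identical copies H3C14 and H3C15, which passed the filter only through Coptidis libraries. Of the 6 that end near the stem-loop 1 was higher (median -0.14). That member was H2AC19, whose near-identical copy H2AC18 is also among the 6. Its log2 fold change was 0.1 without Coptidis high replicate 3. Of the 7 unspliced members without a stem-loop match 2 were higher and 2 lower (median -0.73). A list of 6 members known to make polyadenylated mRNA (H1-2, H2AC6, H2BC4, H2BC5, H2BC12 and H2BC21) was drawn up from general knowledge with earlier results of these data in view, so its direction is a description and not independent evidence. Its members were all called higher, with log2 fold changes from 0.92 to 2.13. Their summed level was 22.3, 21.7 and 21.5 CPM in vehicle and 73.3 and 81.9 CPM at the high dose. Of the other 25 tested members, 7 were higher, 3 were lower and 15 were not called. A list of RNAs without a poly(A) tail, such as SNORD3A and RPPH1, summed to 24.8, 24.6 and 21.4 CPM in vehicle and to 18.4 and 28.6 CPM at the high dose, so the groups overlapped. Of its 6 tested genes 3 were higher, SNORD3A by 2.07, RPPH1 by 2.03 and SCARNA2 by 1.77 on the log2 scale; SCARNA2 lost the call without Coptidis high replicate 2 (edgeR adjusted p 0.273) or vehicle replicate 2 (p 0.146). The share of tailed and untailed histone mRNA in these libraries was not tested.

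Of the 24 tested members whose promoter window holds CCAAT or ATTGG, 11 were higher and 3 lower, and of the 6 without it 2 were higher. These 6 are all H4 genes, among them the near-identical copies H4C14 and H4C15, and no tested H4 gene is among the 24. Motif and histone class therefore cannot be told apart in this split. The same split by TATAAA or TTTATA gave 10 higher and 3 lower of 21 and 3 higher of 9. Over all genes 34.5% were called higher and 33.0% lower. These counts were not tested against each other, and each split has H3C14 and H3C15 among its members.

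The rise was not evenly spread over the Coptidis doses. Group means increased from low to medium to high dose in 13 tested members, decreased in 3 and did neither in 15. H2AC6 had 7.78 and 6.62 CPM at the low dose, below all vehicle libraries, then 13.9 and 15.1 CPM at the medium and 36.8 and 45.4 CPM at the high dose. It was called lower at the low dose (log2 fold change -0.37 ± 0.12, edgeR adjusted p 0.014), a call that ended with GC and length offsets or in a separate fit of the extract with vehicle, and higher at the medium dose (0.64 ± 0.11, edgeR adjusted p 2.9e-06). H2BC21 also stood higher with each dose, at 3.67 and 4.97 CPM, 6.45 and 6.84 CPM, and 10.8 and 10.3 CPM. H1-2 and H3C10 did not. H1-2 had 5.27 and 5.39 CPM at the low dose and 5.13 and 5.4 CPM at the medium dose, both close to vehicle, and H3C10 had 3.09 and 4.27 CPM and then 4.13 and 4.53 CPM. Their medium-dose log2 fold changes were 0.06 ± 0.15 and -0.04 ± 0.15.

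**Figure D3:**
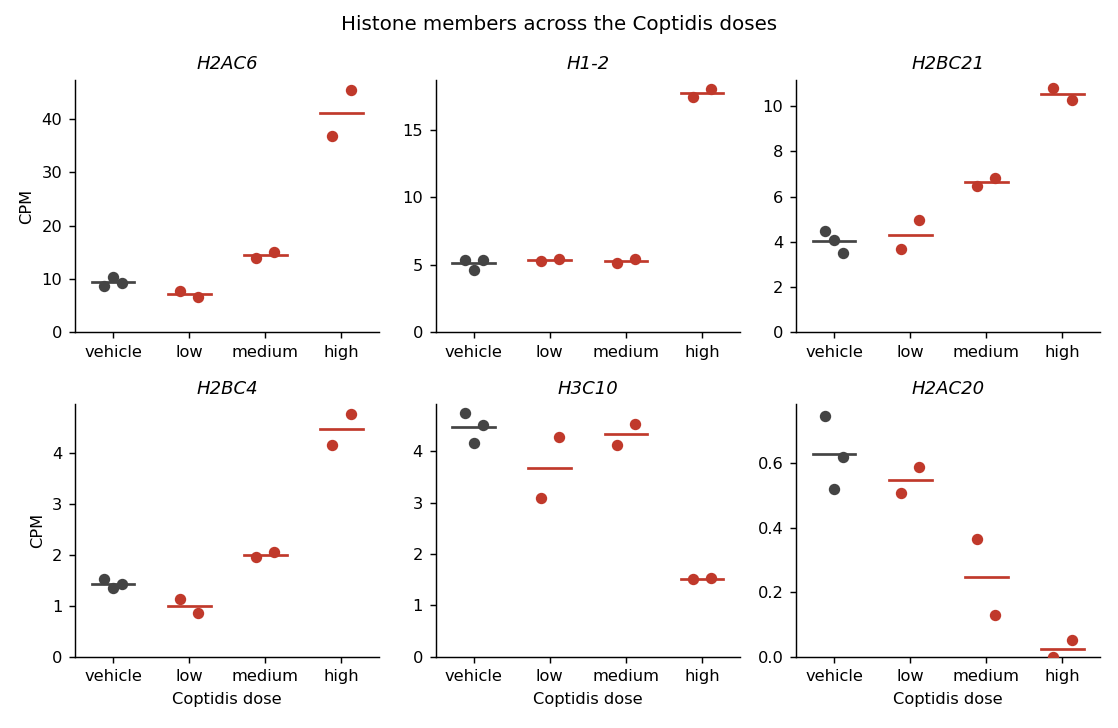
CPM of 6 members in each vehicle library and in each Coptidis library by dose (points) with the group mean (lines); each axis starts at 0 and the scales differ. H2AC6, H2BC21 and H2BC4 are already above vehicle at the medium dose, where H2BC4 was not called. H1-2 and H3C10 were called at the high dose and not at the lower ones.

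At the medium dose 5 members were higher (16.1%, beside 26.1% of all genes) and 3 lower (9.68%, beside 24.6%), both shares below the background. Besides H2AC6 and H2BC21, the higher members were H2BC15 (log2 fold change 0.97), H3C6 (0.99) and H4C15 (1.01). H4C15 is 1 of a near-identical pair, and H4C14 and H4C15 summed rose by 0.45 ± 0.17 (edgeR adjusted p 0.0253). The lower ones were H2AC20 (-1.33), H4C3 and H1-4, the last with 3 counts against 26 in vehicle (ratio 0.175, 95% counting interval 0.034 to 0.572), and H4C3 with 3 counts against 29 (ratio 0.157, 0.0307 to 0.507). At the low dose 0 members were higher (edgeR; 0 at an unadjusted p under 0.05 and 0 by DESeq2), beside 17.1% of all genes, and 1, H2AC6, was lower (3.23%, beside 16.1%). Without vehicle replicate 1 the count of higher members at the low dose was 1.

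The high Coptidis dose was next compared within set 11, where no set difference enters. Against the low dose, 12 members were higher (38.7%, beside 30.9% of all genes) and 4 lower (12.9%, beside 29.3%). The 12 include the identical copies H3C14 and H3C15, which passed the filter only through Coptidis libraries. H2AC6 rose by 2.5 ± 0.12, H2BC4 by 2.14 ± 0.27, H1-2 by 1.73 ± 0.15 and H4C8 by 1.87 ± 0.31 on the log2 scale, and H3C10 fell by 1.25 ± 0.21 (edgeR adjusted p 7.0e-23, 4.1e-09, 1.0e-13, 1.5e-06 and 1.4e-06). The members lower besides H3C10 had few counts: H2AC20 1 against 24 (ratio 0.0476, 95% counting interval 0.00116 to 0.292), H2BC11 1 against 10 (0.114, 0.00263 to 0.803) and H3C3 3 against 18 (0.19, 0.0359 to 0.652). H2BC11 and H3C3 lost the call without Coptidis high replicate 2 (edgeR adjusted p 0.2 and 0.196) or Coptidis low replicate 2 (p 0.0962 and 0.113), and H2BC11 also without Coptidis low replicate 3 (p 0.0568). Of the higher members, H2BC8 lost it without Coptidis low replicate 2 (p 0.0507) or high replicate 3 (p 0.0762), H4C5 without high replicate 2 (p 0.0741), and H4C15 without high replicate 2 (p 0.241), low replicate 2 (p 0.0579) or low replicate 3 (p 0.0607). Leaving out Coptidis high replicate 2 or low replicate 2 took the count of lower members from 4 to 2.

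Against the high dose of Zizyphi, prepared in the same set but given at 500 instead of 280 µg/mL, 14 members were higher (45.2%, beside 33.0% of all genes) and 6 lower (19.4%, beside 31.4%); without Coptidis high replicate 2 the count of lower members was 3. H2AC6 had 7.87 and 8.12 CPM in the Zizyphi libraries and differed by 2.37 ± 0.11, and H3C10 had 4.06 and 3.62 CPM and differed by -1.33 ± 0.20 (edgeR adjusted p 9.3e-23 and 2.0e-07). The difference of the high-against-low effects of Coptidis and Zizyphi was called above 0 in 9 members (29%, beside 24.8% of all genes) and below 0 in 5 (16.1%, beside 24.5%). Without Coptidis low replicate 2 these counts were 5 and 2, and without Coptidis high replicate 2 the second was 3. The difference between Coptidis and Bupleuri, given at the same doses in another set, was above 0 in 9 members (29%, beside 21.7%) and below 0 in 2 (6.45%, beside 22.3%), the latter 1 without Coptidis high replicate 2. H2AC6 exceeded the Bupleuri dose effect by 2.21 ± 0.16 on the log2 scale and H1-2 by 2.51 ± 0.21, while H3C10 lay below it by a difference of -1.25 ± 0.25 (edgeR adjusted p 3.6e-16, 4.5e-14 and 6.1e-05). The Bupleuri dose effect includes low replicate 3, which stood apart from its group. The comparisons in this and the preceding paragraphs share the high-dose Coptidis libraries. Their tested members include H3C14 and H3C15, which passed the filter only through Coptidis libraries.

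Genes of the S-phase programme were mostly lower at the high Coptidis dose, where 33.0% of all genes were called lower and 34.5% higher. All 46 genes of the S-phase and DNA replication list were lower than in vehicle (median log2 fold change -1.99, all genes 0.00), from the helicase subunit MCM2 (-2.08 ± 0.05) and the sliding clamp PCNA (-1.55) to GINS2 (-2.97), MCM10 (-2.88), thymidine kinase TK1 (-2.88) and GINS1 (-2.85). Of 19 genes for histone mRNA synthesis and 3′ end formation, 12 were lower and 3 higher (median -0.48). SLBP had 89.2, 91.4 and 88.9 CPM in vehicle and 33.3 and 34.5 CPM at the high dose, and fell by 1.40 on the log2 scale (SE 0.09, edgeR adjusted p 3.0e-18). E2F2 (-3.22), E2F1 (-2.37) and CDC25A (-2.21), which drive entry into S phase, and CDK2 (-1.57) and its cyclin CCNE2 (-1.55) also fell. HINFP, which activates H4 genes, rose by 0.94, as did ZNF473 (0.47) and SYMPK (0.35) of the 3′ end machinery. NPAT was not called (-0.12 ± 0.11, edgeR adjusted p 0.334).

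Histone chaperones, which escort histones to DNA, were lower in 14 of 19 and higher in 2 (median -0.70), led by ASF1B (-3.06), CHAF1A (-1.98), MMS22L (-1.85) and NASP (-1.55); ASF1A (0.24) and ATRX (0.15) were the higher ones. Of 11 tested replication-independent histone genes, 7 were lower and 3 higher (median -0.43). CENPA, the centromeric H3, fell by 2.79, H2AX by 1.74 and H2AZ2 by 1.48 on the log2 scale. H1-10 (0.35) and H3-3B (0.24) were among the higher ones. The summed level of the 12 genes on this list went the other way from most calls. It was 1785, 1829 and 1798 CPM in vehicle and 2508 and 2731 CPM at the high dose. At the medium dose 45 of the 46 S-phase genes were lower (median -0.90), and at the low dose 36 were lower and 2 higher (median -0.26). SLBP followed with 67.1 and 71.2 CPM at the low and 47.0 and 48.3 CPM at the medium dose.

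Markers of the cell line moved at the same dose: 7 of 8 hepatocyte markers were lower and 1 higher, among them FGB (-2.37), TTR (-1.81), AFP (-0.97) and APOB (-0.86). Their summed level was 41130 to 41710 CPM in vehicle and 26090 and 25230 CPM at the high dose. Of 2 tested fibroblast markers both were lower (COL1A1 -1.60, PDGFRB -0.43), and of 3 endothelial ones CDH5 was lower (-1.66). COL1A1, PDGFRB and CDH5 lost the call without Coptidis high replicate 2 (edgeR adjusted p 0.0751, 0.0914 and 0.23), and CDH5 also without vehicle replicate 2 (p 0.0643). Of 3 leukocyte markers CD68, a lysosomal protein, was higher (1.36) and LYZ lower (-1.19). Both mitochondrial rRNAs were higher, MT-RNR1 by 2.10 and MT-RNR2 by 0.98. The part of these changes in the histone levels was not tested.

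**Figure D4:**
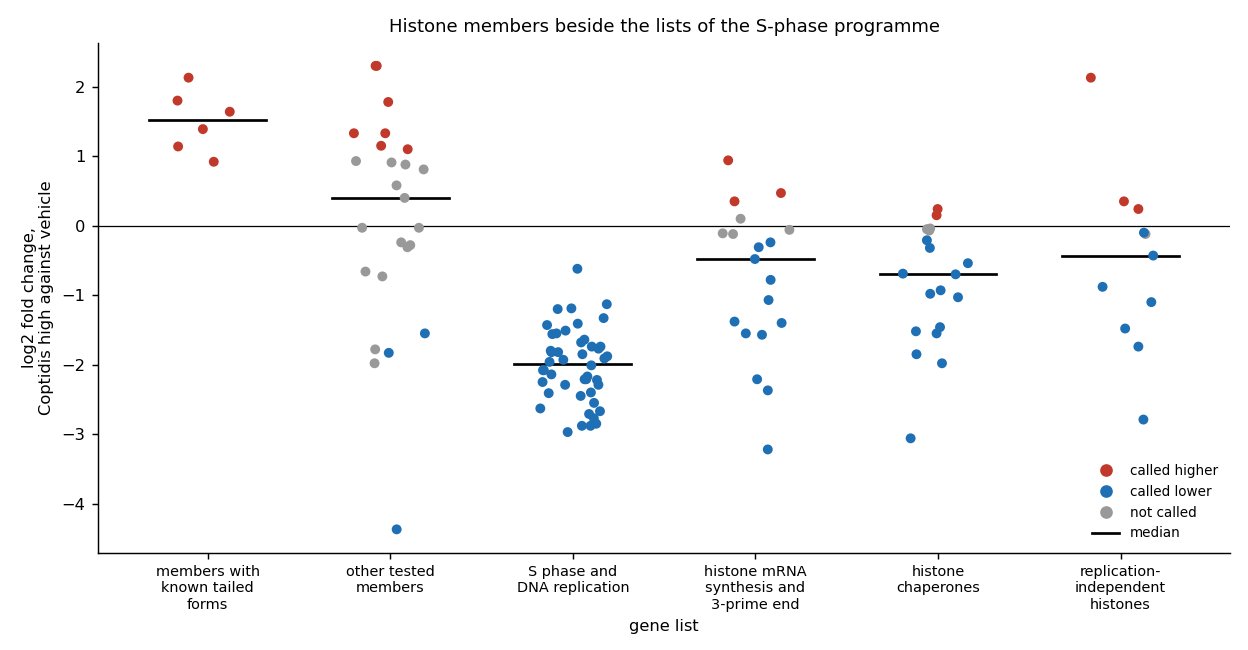
Log2 fold change at the high Coptidis dose against vehicle for single genes (points, coloured by call) of 6 lists, with list medians as lines: the 6 members with known polyadenylated (tailed) forms, the other 25 tested members, and 4 lists of related genes. The first list was chosen with earlier results in view, and the S-phase genes all lie below 0, with a median of -1.99.

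Few members were called for the other extracts, whose comparisons all share the same 3 vehicle libraries. At the high Bupleuri dose 42 of the 46 S-phase genes were lower (median -0.42), with summed levels of 3247 to 3313 CPM. There 2 members were higher than in vehicle (6.45%, beside 19.9% of all genes) and 4 lower (12.9%, beside 19.1%), both shares below the background. H2BC21 had 5.88, 5.46 and 4.84 CPM, all above vehicle, and rose by 0.42 ± 0.12, and H2BC15 rose by 0.61 ± 0.18 (edgeR adjusted p 0.00359 and 0.00575). H1-2, in contrast to Coptidis, had 4.11, 2.98 and 3.35 CPM, all below vehicle, and fell by 0.55 on the log2 scale (SE 0.14, edgeR adjusted p 0.00185). H1-4 (-1.63), H4C5 (-1.29) and H2AC20 (-1.10) were also lower. H1-4 and H2AC20 lost the call without vehicle replicate 1 (p 0.0569 and 0.085), and H4C5 without vehicle replicate 2 (p 0.139) or Bupleuri high replicate 2 (p 0.121) or 3 (p 0.0731); without vehicle replicate 1 the count of lower members was 2. The count of higher members was 1 without Bupleuri high replicate 1.

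Within set 13, Bupleuri high against low had 5 higher members (16.1%, beside 20.2% of all genes) and 3 lower (9.68%, beside 20.0%). H4C8 had 0.884, 1.02 and 0.995 CPM at the high dose and 0.496, 0.389 and 0.261 CPM at the low dose, without overlap, and rose by 1.32 ± 0.30 (edgeR adjusted p 3.7e-04). H1-2 fell by 0.78 on the log2 scale (SE 0.14, edgeR adjusted p 1.3e-05), and H2AC20 was lower (-1.38, edgeR adjusted p 0.00188). At the low dose H1-2 varied between libraries (SD 1.78 CPM). It kept its call under every setting, with log2 fold changes from -0.92 to -0.52. Bupleuri low replicate 3 stood apart from its group, with 56.1 CPM of summed histone level against 42.8 and 45.3 CPM. Its summed H1 level was 8.26 CPM, against 4.96 and 5.31 CPM in the other low-dose libraries. Without this library H2AC20 was no longer called (edgeR adjusted p 0.053), and 3 members were higher and 1 lower. The counts also moved to 3 higher without Bupleuri high replicate 1 and to 5 lower without Bupleuri low replicate 1.

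Aconiti high had a summed histone level of 58.3, 59.9 and 52.6 CPM, close to that of Coptidis medium, with 18 of 46 S-phase genes lower and 2 higher (median -0.10). RNAs without a poly(A) tail summed to 15.7, 21.7 and 79.6 CPM in these libraries. Fibroblast markers summed to 15.3, 15.7 and 12.6 CPM against 10.0, 10.4 and 11.2 in vehicle and 9.76 to 10.7 at the low dose, with DCN at 0, and mitochondrial rRNA stood at 33030 to 33980 CPM. The part of these in the result was not tested. Against vehicle 4 members were higher (12.9%, beside 11.2% of all genes) and 1 lower (3.23%, beside 12.0%), so the share of higher members was at the background. H2BC15 had 4.54, 4.60 and 4.10 CPM, above all vehicle libraries, and rose by 0.90 ± 0.18 (edgeR adjusted p 1.5e-04). H4C16 (0.95), H2BC4 (0.74) and H2BC21 (0.43) were the other higher members, and H2AC20 (-1.06) was the lower one. H4C16 lost the call without vehicle replicate 3 (edgeR adjusted p 0.104), and H2AC20 without vehicle replicate 1 (p 0.148) or 3 (p 0.0654) or Aconiti high replicate 1 (p 0.19), which leaves 0 lower members; without vehicle replicate 3 the higher members were 2. Against the low dose of the same set 7 members were higher (22.6%, beside 6.77% of all genes) and 1 lower (3.23%, beside 7.83%). H2BC21 had 5.70, 5.63 and 4.93 CPM at the high and 3.09, 2.97 and 2.72 CPM at the low dose, and rose by 0.89 ± 0.12 (edgeR adjusted p 3.3e-07). H2BC4 (0.83), H2BC15 (0.76), H3C6 (0.72), H2AC6 (0.40), H3C10 (0.39) and H4C14 (1.57) were higher as well. H4C14 is 1 of a near-identical pair, and H4C14 and H4C15 summed rose by 0.48 ± 0.16 (edgeR adjusted p 0.0307). H4C14 lost the call without Aconiti high replicate 1 (p 0.0885) or 3 (p 0.0883) or low replicate 2 (p 0.127) or 3 (p 0.0864), and H2AC20 (-1.16) without high replicate 1 (p 0.169), low replicate 1 (p 0.076) or low replicate 2 (p 0.0796). The count of higher members was 4 without Aconiti high replicate 1 or low replicate 2.

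Citri high had 0 higher members against vehicle (edgeR; 2 at an unadjusted p under 0.05 and 0 by DESeq2), beside 7.73% of all genes, and 3 lower (9.68%, beside 6.51%). H2BC21 had 2.83, 2.68 and 2.47 CPM, all below vehicle (-0.59 ± 0.13, edgeR adjusted p 0.00151), and H3C10 (-0.50) and H2BC5 (-0.64, edgeR adjusted p 0.048) were lower. H3C10 lost the call without vehicle replicate 1 (p 0.0639) or Citri high replicate 3 (p 0.0753), and each of these left 1 lower member; H2BC5 lost it by DESeq2, with no filter, with the replicate block, with GC and length offsets, and in 27 of the 57 refits that left out 1 library, among them each of the 3 Citri high libraries (p up to 0.212). Without Citri high replicate 1 the count of higher members was 1. Cimicifugae high had 1 higher member (3.23%, beside 12.1%) and 3 lower (9.68%, beside 10.0%). H4C11 had 4.19, 2.58 and 2.95 CPM against 2.19, 1.86 and 1.66 CPM in vehicle (0.76 ± 0.24, edgeR adjusted p 0.0181), and lost the call without vehicle replicate 2 (p 0.0592) or 3 (p 0.0774) or Cimicifugae high replicate 1 (p 0.173). Leaving out each of these gave 0 higher members, and without Cimicifugae high replicate 2 it was 2. H2BC5 (-0.67), H3C10 (-0.40) and H2AC6 (-0.32) were lower. H2BC5 lost the call without vehicle replicate 1 (p 0.126) or 3 (p 0.0602) or Cimicifugae high replicate 1 (p 0.14) or 3 (p 0.0563), and H3C10 without vehicle replicate 1 (p 0.121) or 3 (p 0.0641) or Cimicifugae high replicate 1 (p 0.0815) or 2 (p 0.104). The count of lower members was 1 without vehicle replicate 1 or 3 or Cimicifugae high replicate 3.

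Yijung-tang high had the lowest summed level of the replicated groups, 35.6 and 41.9 CPM. It had 0 higher members (edgeR; 0 at an unadjusted p under 0.05 and 0 by DESeq2), beside 9.49% of all genes, and 4 lower (12.9%, beside 7.84%). H3C10 had 2.62 and 2.53 CPM and H2AC6 5.88 and 6.76 CPM, all below every vehicle library, and they fell by 0.79 (SE 0.16) and 0.56 (SE 0.12) in log2 (edgeR adjusted p 3.4e-04 and 5.4e-04). H2BC21 (-0.51) and H4C15 (-2.34) were the others. H4C15, 1 of a near-identical pair, was no longer called without Yijung-tang high replicate 1 (edgeR adjusted p 0.166), which left 2 lower members, and the summed pair was not called (-0.40, edgeR adjusted p 0.146). Zizyphi high had 0 higher and 0 lower members (edgeR; 2 and 1 at an unadjusted p under 0.05, 0 and 0 by DESeq2), beside 2.07% and 1.57% of all genes. S-phase genes at these doses were called in both directions: 9 higher and 1 lower for Citri, 5 and 9 for Cimicifugae, 6 and 3 for Yijung-tang, and 5 and 2 for Zizyphi.

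High against low dose within a set gave 0 higher members for Zizyphi, Citri, Cimicifugae and Yijung-tang (edgeR; 2, 1, 0 and 0 at an unadjusted p under 0.05, and 0 by DESeq2 in each), beside 0%, 0.252%, 4.41% and 3.98% of all genes. Lower members were 0, 0, 0 and 1 (edgeR; 1, 2, 1 and 6 at an unadjusted p under 0.05, and 0, 0, 0 and 1 by DESeq2), beside 0.00600%, 0.528%, 2.73% and 3.31% of all genes. The 1 was H3C10 in Yijung-tang, with 2.62 and 2.53 CPM at the high and 3.72 and 3.91 CPM at the low dose (-0.56 ± 0.18, edgeR adjusted p 0.0445). Its call ended without any 1 of the 4 libraries (edgeR adjusted p 0.129 to 0.24).

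**Figure D5:**
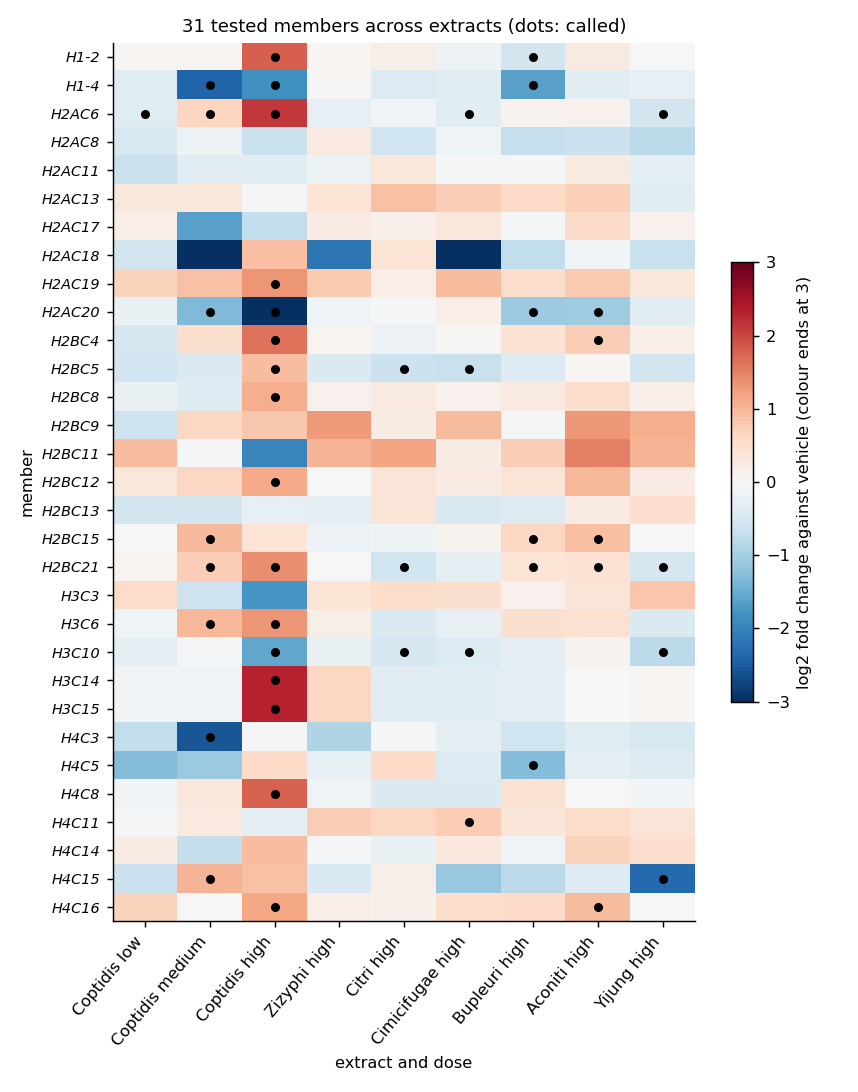
Log2 fold change against vehicle for the 31 tested members (rows) at 3 Coptidis doses and at the high dose of 6 other extracts (columns); red is higher, blue lower, dots mark called members, and the colour ends at 3. H2AC18 had 0 counts in all libraries of Coptidis medium and Cimicifugae high, so its colour there is no measured size. The high Coptidis column holds 13 higher and 3 lower members, and the Zizyphi column has no dot.

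Banhasasim-tang had 1 library per dose and no test was made. Its summed histone levels were 41.2, 43.3 and 33.2 CPM at the high, medium and low doses, all below the lowest vehicle library except the medium dose. All 3 libraries stood apart from vehicle in mitochondrial rRNA, at 128800, 85270 and 4902 CPM, and the low-dose library had 5550 CPM of S-phase genes. Their part in the histone levels was not tested. At the high dose H2AC6 had 7.91 CPM, a log2 ratio to vehicle of -0.24 (95% counting interval -0.45 to -0.04), and H3C10 had 2.66 CPM and a ratio of -0.73 (-1.10 to -0.38). H2AC19, 1 of a near-identical pair, had a ratio of 0.78 (0.45 to 1.08) and H2BC15 one of 0.41 (0.07 to 0.73). H2BC21 had a ratio of -0.36 (-0.70 to -0.03) and H1-2 one of -0.23 (-0.52 to 0.04). The intervals cover counting error only.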

How the data were processed

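The data are RNA-seq libraries of HepG2 cells, 60 in 25 groups. The deposited table holds expected counts per gene, which the authors made with RSEM 1.3.3 after FastQC 0.11.9, Trim Galore 0.6.5 and STAR 2.7.3a on GRCh38, per the submitters' processing notes. The sources used here do not give the annotation release. Of its 267 count columns, 207 match no sample here and were not used.

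Expected counts were rounded. In edgeR 4.0.16 (R 4.3.3), filterByExpr kept 16675 genes and left out 44000, TMM scaled the libraries, and 1 quasi-likelihood model (glmQLFit, robust; 57 libraries, 22 groups, 35 residual degrees of freedom, biological coefficient of variation 6.14%) gave 19 comparisons, with Benjamini-Hochberg adjustment over all genes and calls at 0.05. Library totals of 18015555 to 29549531 set the counting precision. The scripts were tested on simulated data. All 48 replicate pairs differed by more than sampling noise (lowest chi-square 2.09 per degree of freedom). Median log2 fold changes over all genes lay between -0.013 and 0.018.

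Members, gene lists and comparisons were chosen with earlier results of these data known. Values per library are given for the 6 members highest in vehicle and, among called members with at least 1 CPM, up to 5 rises and 5 falls of Coptidis high against vehicle, plus up to 3 per other extract. From each list up to 4 called genes are named, and SLBP, NPAT, CCNE2, PCNA and MCM2 always. H2AC20 and other low-count members at Coptidis were added after their values were seen, as were HINFP, ZNF473, SYMPK, ASF1A, ATRX, H1-10 and H3-3B. Alternatives were DESeq2 1.42.0, RLE scaling, no filter, a replicate block, GC and length offsets, separate fits, summed copies and leaving out each library. GENCODE 29 and RefSeq GRCh38.p14 served only for gene features. Ratios of pooled counts have exact 95% intervals for counting error only. 1 gene of the replication-independent histone list is not reported here.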

Additional observations from a re-analysis of the deposited data

Results flagged for a closer look

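The effect of the high against the low dose differed between extracts by the test of that difference in 14 members against Zizyphi (9 above 0 and 5 below) and in 11 against Bupleuri (9 and 2). Among the 8 members with values per library by the naming rule at the high Coptidis dose, 5 passed in both (edgeR's quasi-likelihood test, Benjamini-Hochberg adjusted). Against Zizyphi, of the same set, the Coptidis effect was larger by 2.61 on the log2 scale for H2AC6 (edgeR adjusted p 2.6e-17), by 1.59 for H1-2 (6.4e-08), by 1.84 for H2BC4 (1.3e-04) and by 1.23 for H2BC21 (2.0e-06), and differed by -1.19 for H3C10 (2.3e-04). Against Bupleuri, of another set, the difference was 2.21 for H2AC6 (3.6e-16), 2.51 for H1-2 (4.5e-14), 1.95 for H2BC4 (9.6e-06), 0.53 for H2BC21 (0.0181) and -1.25 for H3C10 (6.1e-05). Both differences use the same Coptidis libraries. Without Bupleuri low replicate 3, which stood apart from its group, the difference against Bupleuri was called above 0 in 8 members and below 0 in 2.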

How the results depend on the processing

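0 of 119 named gene results were called in the opposite direction. The sign turned in some results that were not called, such as H4C3 at Coptidis high against vehicle (-0.03, from -1.42 to 0.64). Of the called results, 60 of 88 kept their call under every setting. The counts of called members moved by over 1.5 times as follows, and the cause was not tested. With no filter, against vehicle, higher members were 2 for Zizyphi (1 lower), 1 for Citri, 2 for Cimicifugae, 7 for Aconiti and 2 for Coptidis low. High against low, no filter gave 1 lower for Zizyphi, 1 higher for Citri, 1 higher and 1 lower for Cimicifugae, 5 lower for Bupleuri and 1 higher for Yijung-tang, and 3 lower for the Coptidis minus Zizyphi difference. With GC and length offsets, higher members were 0 for Cimicifugae and 4 for Bupleuri against vehicle, and lower ones 0 for Coptidis low and 4 for Yijung-tang high against low. Separate fits gave 0 lower for Coptidis low, 1 higher for Zizyphi, 2 higher for Citri, 2 lower for Bupleuri and 4 lower for Yijung-tang high against low; they cannot give the Coptidis against Zizyphi or difference contrasts. DESeq2 gave 0 lower for Aconiti against vehicle and 1 lower for the Coptidis minus Bupleuri difference. Library totals without TMM gave summed levels of 52.8 CPM for Coptidis medium, 37.6 for Banhasasim-tang high and 40.7 for medium. Summing near-identical copies, chosen after seeing the data, gave 13 higher for Coptidis high. Each pair then counts as 1 gene, so fewer members were tested than in the main fit. H3C14 and H3C15 count once in this 13, and the summed H4C14 and H4C15 enter it.

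Samples were not treated as paired by replicate number. Same-numbered libraries had correlations of -0.0811 to 0.0446 across sets. Within sets they were all above 0. With 3 pairs in a set they ran from 0.0134 to 0.124. In set 11 they were 0.118 for Coptidis high and low, 0.215 for Zizyphi high and low and 0.128 for Coptidis and Zizyphi high. The 2 pairs there give the same value by construction. A replicate block gave 1 higher for Citri against vehicle. The replicate block with GC and length offsets gave 0 higher for Cimicifugae, 5 higher for Bupleuri, 1 higher and 0 lower for Coptidis low, and 4 lower for Yijung-tang high against low.

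Leaving out each library in turn gave these ranges against vehicle: Coptidis high 11 to 14 higher and 3 to 4 lower, Zizyphi 0 to 1 higher, Citri 0 to 2 higher and 1 to 3 lower, Cimicifugae 0 to 2 higher and 1 to 4 lower, Bupleuri 1 to 3 higher and 2 to 4 lower, Aconiti 2 to 5 higher and 0 to 1 lower, Yijung-tang 2 to 4 lower, Coptidis medium 4 to 5 higher and 2 to 4 lower, and Coptidis low 0 to 1 higher. For high against low they were 10 to 12 higher and 2 to 4 lower for Coptidis, 3 to 5 higher and 1 to 5 lower for Bupleuri, 4 to 7 higher and 0 to 1 lower for Aconiti, and 0 to 4 lower for Yijung-tang. Coptidis against Zizyphi high gave 11 to 14 higher and 3 to 6 lower, the Coptidis minus Zizyphi difference 5 to 10 and 2 to 5, and the Coptidis minus Bupleuri difference 6 to 9 and 1 to 3. Without Bupleuri low replicate 3, which stands apart, Zizyphi had 1 and Citri 2 higher members against vehicle, and Yijung-tang had 4 lower high against low. Where 1 of 2 libraries is left out, the other is assumed to vary like the other groups. Low counts limit most H1, H3 and H4 members.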
